A study of Mus musculus with 12 samples.

Results

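The genes described here are the mouse receptors for the constant (Fc) part of immunoglobulin G and the proteins that carry or damp their signal: Fcgr1, Fcgr2b, Fcgr3, Fcgr4, Fcer1g, Fcgrt, Syk, Lyn and Ptpn6. They were chosen by name, as 9 of the 36528 gene IDs in the data, and all 9 were among the 16032 genes with enough counts to be tested. RNA was sequenced from whole liver of 12 mice. The CCl4 group (6 mice) was given carbon tetrachloride, a solvent that becomes a toxic radical in hepatocytes and scars the liver when given repeatedly, and the oil group (6 mice) was given the corn oil vehicle. Both groups were injected intraperitoneally 3 times per week over a period of 6 weeks. Strain, sex and age are not given in the labels, and the oil livers are vehicle controls, not uninjected livers.

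Immune cells read antibody-coated material through Fc receptors. Fcgr1, Fcgr3 and Fcgr4 encode activating receptors that bind IgG outside the cell and depend on a partner, the common gamma chain encoded by Fcer1g, whose tail carries an immunoreceptor tyrosine-based activation motif (ITAM). A Src-family kinase such as Lyn phosphorylates the tyrosines of that motif, and the kinase Syk then docks there and starts phagocytosis and cytokine release. Fcgr2b encodes the inhibitory receptor, with an inhibitory motif (ITIM) that recruits phosphatases, and in the liver it is known above all from sinusoidal endothelial cells, which clear small immune complexes from blood. Ptpn6 encodes the tyrosine phosphatase SHP-1. Fcgrt encodes the heavy chain of the neonatal Fc receptor, which pairs with beta-2-microglobulin and protects IgG and albumin from breakdown, in hepatocytes as well as in macrophages and endothelium.

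The sequence that separates the activating from the inhibitory arm is short. The lines below give the coding DNA of the ITAM of Fcer1g (codons 65 to 79 of 86) and of the ITIM of Fcgr2b (codons 317 to 322 of 340), read 5′ to 3′ from the principal GENCODE M21 transcripts on GRCm38, with the tyrosine codons in capitals.
Fcer1g ITAM: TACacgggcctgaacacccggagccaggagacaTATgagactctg
Fcgr2b ITIM: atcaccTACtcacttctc
The ITAM holds 2 tyrosine codons and the ITIM holds 1.

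Fcgr2b, Fcgr4, Fcgr3 and Fcer1g lie near each other on chromosome 1. On GRCm38 Fcgr2b occupies chr1:170960558-170976071 on the minus strand, Fcgr4 chr1:171018926-171029761 on the plus strand, Fcgr3 chr1:171051169-171065915 on the minus strand and Fcer1g chr1:171229572-171234349 on the minus strand. Fcgr1 lies apart, at chr3:96282909-96293969 on the minus strand. The remaining genes are Lyn at chr4:3678068-3791612 (plus strand), Ptpn6 at chr6:124720707-124738709 (minus), Fcgrt at chr7:45092993-45103822 (minus) and Syk at chr13:52582610-52648792 (plus). Antisense genes overlap Fcgr2b (Gm38204), Fcgrt (Gm45669) and Ptpn6 (Gm20531), and a lincRNA on the other strand overlaps Lyn (Gm26857), all in GENCODE. Whether the counting used strand is not given in the sources used here. Without it, reads of these partners and of the genes named cannot be told apart.

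Fcgr2b and Fcgr3 are close copies outside the cell and differ inside it. Over the 509 coding bases that align, 491 (96.5%) were identical, whereas the other 5 pairs of Fcgr genes were between 57.0% and 64.2% identical. The longest run without a difference was 129 bases (coding bases 278 to 406 of Fcgr2b, counted from the start codon, and 263 to 391 of Fcgr3) and is given here because reads from it fit both genes.
Fcgr2b and Fcgr3: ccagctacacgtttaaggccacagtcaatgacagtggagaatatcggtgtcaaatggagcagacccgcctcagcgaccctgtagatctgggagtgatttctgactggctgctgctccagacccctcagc
Of all windows of 50 bases in the annotated transcripts, 9.58% in Fcgr3 and 4.38% in Fcgr2b also occur in another gene. For Lyn the share was 13.4%, with the pseudogene Gm11787, and for the other 6 genes it was 0. The treatment of reads that fit more than 1 gene is not given in the sources used here. The levels of Fcgr2b, Fcgr3 and Lyn carry that uncertainty.

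The proximal promoters of the 4 Fcgr genes are shown because these genes changed unequally. Each line gives the 250 bases before a RefSeq transcript start (GRCm38.p6), 5′ to 3′ on the strand of the gene, at chr3:96293970-96294219 for Fcgr1, chr1:171059404-171059653 for Fcgr3, chr1:171018676-171018925 for Fcgr4 and chr1:170976072-170976321 for Fcgr2b. The Fcgr3 window lies inside the annotated span of that gene, which extends further upstream. Capitals mark matches to GAGGAA, a core bound by ETS factors such as PU.1 (here on the other strand, as TTCCTC), and to TTCNNNGAA, the interferon activation site.
Fcgr1: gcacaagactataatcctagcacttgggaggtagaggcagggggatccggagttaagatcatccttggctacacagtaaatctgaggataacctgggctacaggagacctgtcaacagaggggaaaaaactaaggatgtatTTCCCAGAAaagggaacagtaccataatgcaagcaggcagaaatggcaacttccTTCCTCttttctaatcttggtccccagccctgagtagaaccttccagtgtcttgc
Fcgr3: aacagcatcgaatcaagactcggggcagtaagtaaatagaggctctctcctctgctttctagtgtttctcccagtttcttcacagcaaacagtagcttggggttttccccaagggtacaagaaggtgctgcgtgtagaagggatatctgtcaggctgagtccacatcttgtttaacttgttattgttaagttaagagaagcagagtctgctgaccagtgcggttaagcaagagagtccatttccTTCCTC
Fcgr4: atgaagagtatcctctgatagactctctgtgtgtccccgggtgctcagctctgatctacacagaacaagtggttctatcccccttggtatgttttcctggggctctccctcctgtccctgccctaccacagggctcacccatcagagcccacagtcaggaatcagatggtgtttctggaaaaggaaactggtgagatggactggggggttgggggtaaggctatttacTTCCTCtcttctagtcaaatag
Fcgr2b: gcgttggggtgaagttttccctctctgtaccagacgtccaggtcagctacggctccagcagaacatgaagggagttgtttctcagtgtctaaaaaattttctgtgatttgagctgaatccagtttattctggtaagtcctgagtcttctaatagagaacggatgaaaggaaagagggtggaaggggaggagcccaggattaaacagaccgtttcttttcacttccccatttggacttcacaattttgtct
Searched on both strands, GAGGAA occurs in the windows of Fcgr1 (from base -55), Fcgr3 (-6) and Fcgr4 (-22) and in the second of 2 Syk windows, and it is not in those of Fcgr2b, Fcer1g, Fcgrt or Ptpn6. These letters are common: 28.3% of all 32851 RefSeq promoter windows of 300 bases hold them, and 27.1% of those of tested genes. TTCNNNGAA was found in Fcgr1 alone among the 8 genes with a window (from base -109), against 8.3% of all windows. A match to these letters is a description of the window and does not show binding.

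Of the 9 genes, 5 were higher in the CCl4 livers, 1 was lower and 3 did not pass the test. The rises were Fcgr1, Fcgr3, Fcgr4, Fcer1g and Syk, the fall was Fcgrt, and Fcgr2b, Lyn and Ptpn6 were not called (edgeR's quasi-likelihood test, Benjamini-Hochberg adjusted p under 0.05 over all genes tested). Among all 16032 genes tested, 20.6% were called higher and 18.4% lower, so that 39.0% were called in either direction against 6 of the 9 genes here. A rise of at least 2-fold was called for 4 of the 9 genes and for 11.8% of all genes tested. All livers of a group stood beyond all livers of the other for 5 of the 9 genes, each time with CCl4 above oil, and for 20.0% of all genes tested. The median log2 fold change was 0.90 over the 9 genes and 0.01 over all genes tested. Since whole liver was sequenced, a change in cell number and a change in RNA per cell cannot be told apart.

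**Figure D1:**
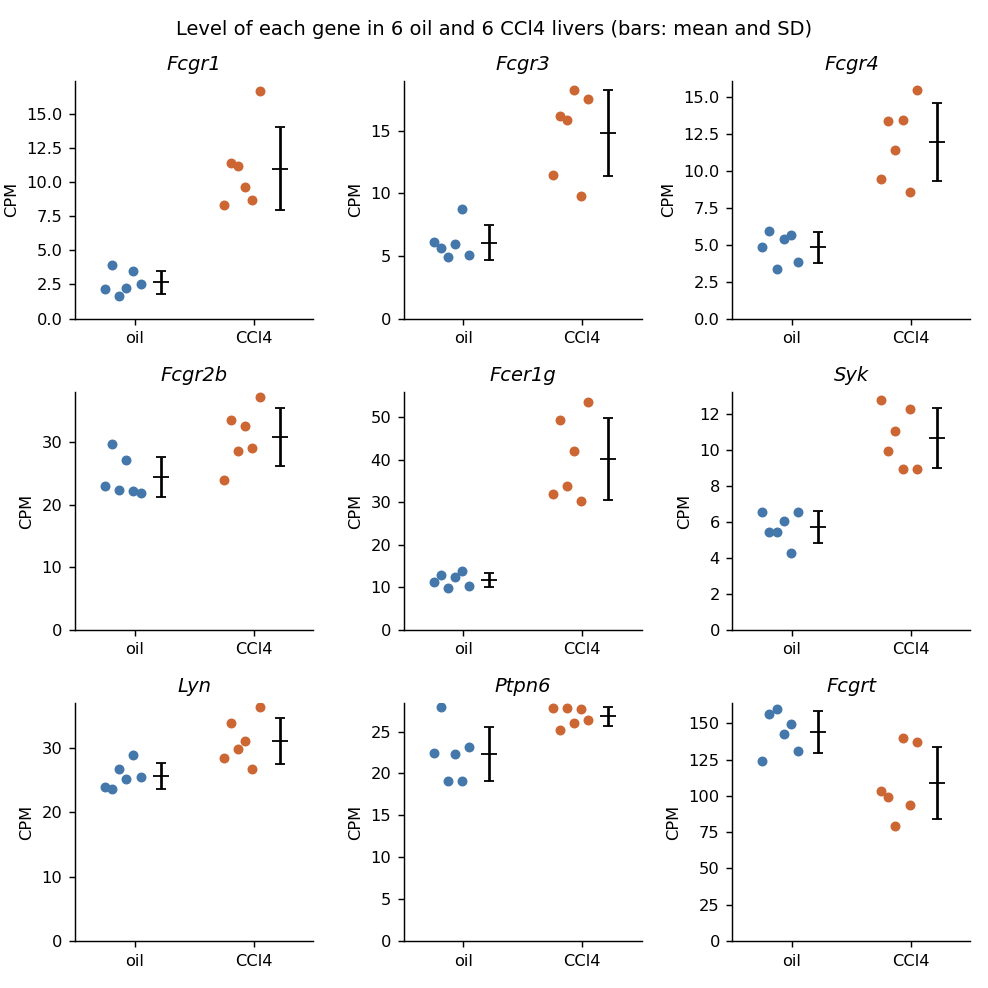
Level of each of the 9 genes in each liver, in CPM on a linear axis from 0, with 1 point per liver in the order of the replicate numbers and bars for the mean and SD of the 6 livers of a group. Fcgr1, Fcgr3, Fcgr4, Fcer1g and Syk have no overlap between the groups, while the other 4 genes overlap.

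Libraries held between 43027778 and 70375852 counts, and the levels below are CPM, the count divided by the TMM-scaled library total and multiplied by 1000000. The lowest count of any of the 9 genes in a library was 72, for Fcgr1, so that counting error is small beside the differences given for the called genes. The labels do not say more of the livers than that they came from injected mice, so the p-values measure the spread between these 12 samples. In these libraries the level of a gene also moved with its transcript length. The slope of log2 CPM on log2 transcript length ran from -0.10 to 0.30 in the oil livers (median 0.18) and from -0.32 to 0.22 in the CCl4 livers (median -0.06), and the groups overlapped. A low slope means more counts from short transcripts, and it was lowest in oil replicate 5 and CCl4 replicate 6. Values fitted with this slope as a covariate are given beside each gene it moves.

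The high-affinity receptor Fcgr1 rose most of the 9 genes. Its level ran from 1.69 to 3.89 CPM in the oil livers (median 2.38) and from 8.30 to 16.6 CPM in the CCl4 livers (median 10.4). Every CCl4 liver was at least 2.13 times as high as the highest oil liver, and CCl4 replicate 6 was the highest of all. The fitted change was 4.12-fold (log2 fold change 2.04 ± 0.23, SE, n = 6 each; edgeR adjusted p = 1.343e-05), and adjusted for the length slope it was 1.73 on the log2 scale.

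Fcgr3, the low-affinity activating receptor found on macrophages, neutrophils and NK cells, rose less. The oil livers lay between 4.89 and 8.71 CPM (median 5.82) and the CCl4 livers between 9.79 and 18.3 CPM (median 16.01). The groups did not overlap, but the gap was narrow: the lowest CCl4 liver (replicate 5) was 1.12 times the highest oil liver (replicate 5). It was fitted at a log2 fold change of 1.29 ± 0.19 (2.45-fold, edgeR adjusted p = 1.06e-04), and at 0.98 when adjusted for the length slope.

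Fcgr4, a receptor of monocytes, macrophages and neutrophils for IgG2a and IgG2b, rose by nearly the same amount. It ran from 3.33 to 5.93 CPM in the oil livers (median 5.14) and from 8.53 to 15.5 CPM in the CCl4 livers (median 12.4). The lowest CCl4 liver was 1.44 times the highest oil liver. Its log2 fold change was 1.30 ± 0.19 (2.47-fold, edgeR adjusted p = 9.19e-05), and 0.998 when adjusted for the length slope.

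Fcer1g, the signalling chain that these 3 receptors share, rose as well. It lay between 9.76 and 13.8 CPM in the oil livers (median 11.8) and between 30.2 and 53.6 CPM in the CCl4 livers (median 37.8). Every CCl4 liver was at least 2.19 times as high as the highest oil liver, with CCl4 replicates 2 and 6 the highest and replicates 1 and 5 the lowest. This gave a log2 fold change of 1.78 ± 0.17 (3.43-fold, edgeR adjusted p = 2.74e-06). Its transcript is the shortest of the 9 (683 bases), and adjusted for the length slope it rose by 1.47 on the log2 scale.

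Fcgr2b, the inhibitory receptor, did not pass the test. Its level ran from 21.9 to 29.7 CPM in the oil livers (median 22.7) and from 23.9 to 37.1 CPM in the CCl4 livers (median 30.8). The groups overlapped, with 3 of the 6 CCl4 livers above the highest oil liver. Its log2 fold change was 0.34 ± 0.13 (1.26-fold, 95% interval 0.05 to 0.63, edgeR adjusted p = 0.0540). The call was within reach of the settings: 5 of 21 alternatives called it higher, among them upper-quartile scaling (0.45, adjusted p = 0.0161), limma-voom (0.31, adjusted p = 0.0337) and leaving out oil replicate 2 (adjusted p = 0.0333) or CCl4 replicate 1 (adjusted p = 0.0322). Adjusted for the length slope it stood at 0.19 (edgeR adjusted p = 0.179).

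**Figure D2:**
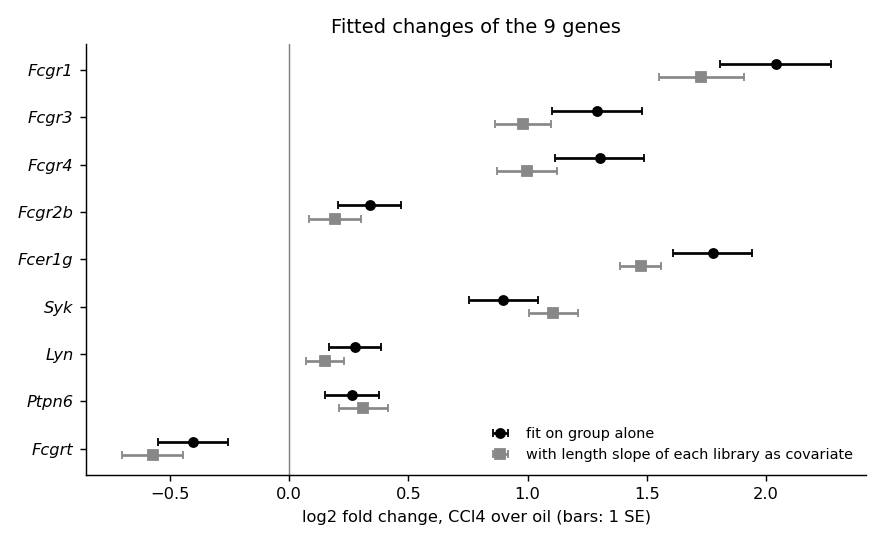
Log2 fold change of each gene, CCl4 over oil, with bars of 1 standard error, from the fit on the groups alone (black circles) and from the fit that adjusts for the length slope of each library (grey squares). In both fits Fcgr1, Fcer1g, Fcgr4, Fcgr3 and Syk lie farthest above 0, Fcgr2b, Lyn and Ptpn6 lie close above 0, and Fcgrt lies below it.

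Syk, the kinase that docks on phosphorylated ITAMs, rose. It ran from 4.27 to 6.58 CPM in the oil livers (median 5.77) and from 8.95 to 12.8 CPM in the CCl4 livers (median 10.5). The groups did not overlap, and the lowest CCl4 liver was 1.36 times the highest oil liver. Its log2 fold change was 0.90 ± 0.15 (1.86-fold, edgeR adjusted p = 2.55e-04). Its transcript is the longest of the 9 (5363 bases), and adjusted for the length slope it rose by 1.11 on the log2 scale.

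Lyn, a Src-family kinase that acts at both activating and inhibitory receptors, did not pass the test. It lay between 23.6 and 28.8 CPM in the oil livers (median 25.3) and between 26.7 and 36.3 CPM in the CCl4 livers (median 30.4). Of the 6 CCl4 livers 4 were above the highest oil liver. The log2 fold change was 0.28 ± 0.11 (95% interval 0.03 to 0.52, edgeR adjusted p = 0.0564). It was called higher in 6 of 21 alternatives, including DESeq2 (adjusted p = 0.0392) and the fits without oil replicate 5 (adjusted p = 0.0327) or CCl4 replicate 5 (adjusted p = 0.0457), and stood at 0.15 when adjusted for the length slope.

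Ptpn6, whose product removes phosphate at ITIM-bearing receptors, did not pass the test either. It ran from 19.1 to 27.9 CPM in the oil livers (median 22.4) and from 25.2 to 27.8 CPM in the CCl4 livers (median 27.0). Of the 6 oil livers 5 lay below the lowest CCl4 liver, and oil replicate 2 lay above the highest. The coefficient of variation was 14.5% among the oil livers and 4.13% among the CCl4 livers, a difference that was not tested. The log2 fold change was 0.26 ± 0.11 (95% interval 0.01 to 0.52, edgeR adjusted p = 0.0789). In 3 of 21 alternatives it was called: upper-quartile scaling (adjusted p = 0.0212), the adjustment for the length slope (0.31, adjusted p = 0.0245) and the fit without oil replicate 2 (0.33, adjusted p = 0.0296).

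Fcgrt was the only one of the 9 genes called lower. Its level ran from 124 to 160 CPM in the oil livers (median 146) and from 79.4 to 140 CPM in the CCl4 livers (median 101). The groups overlapped: CCl4 replicates 4 and 6 lay within the oil range and the other 4 CCl4 livers lay below it. The log2 fold change was -0.40 ± 0.15 (1.32-fold lower, edgeR adjusted p = 0.0431), close to the threshold. The call was kept in 10 of 21 alternatives and lost in 11: with upper-quartile scaling (-0.29, adjusted p = 0.126), with no filter (adjusted p = 0.0573), with a minimum of 50 counts (adjusted p = 0.0511) and without any 1 of oil replicates 2, 3, 4 or 5 or CCl4 replicates 1, 2, 3 or 5 (adjusted p from 0.0534 to 0.0880). Adjusted for the length slope it was -0.57 (edgeR adjusted p = 0.00221). B2m, the light chain of the same receptor, stood at 2053 ± 178 CPM in the oil livers and 1813 ± 190 CPM in the CCl4 livers (SD, n = 6; log2 fold change -0.18, edgeR adjusted p = 0.215).

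Per length of transcript, Fcgrt was the most abundant of the 9 genes. In the oil livers, on the scale of CPM per kb of the longest annotated transcript, the order of the mean levels was Fcgrt (81.3), Fcer1g (17.1), Ptpn6 (9.68), Lyn (7.40), Fcgr2b (6.88), Fcgr3 (4.51), Fcgr4 (3.85), Syk (1.07) and Fcgr1 (1.03). The ranges over the 6 livers did not overlap between Fcgrt and Fcer1g, between Fcer1g and Ptpn6, or between Fcgr4 and Syk, and the other neighbours overlapped. In the CCl4 livers Fcgrt (61.5) and Fcer1g (58.7) overlapped at the top. They were followed by Ptpn6 (11.6), Fcgr3 (11.02), Fcgr4 (9.50), Lyn (8.96), Fcgr2b (8.69), Fcgr1 (4.24) and Syk (1.99). There the ranges were separate between Fcer1g and Ptpn6, between Fcgr2b and Fcgr1, and between Fcgr1 and Syk. On this scale Fcgr2b had a higher mean level than any activating Fcgr gene in the oil livers. In the CCl4 livers Fcgr3 and Fcgr4 had means above it, with overlapping ranges. That change of order rests on the division by length (3544 bases for Fcgr2b, 1347 for Fcgr3 and 1256 for Fcgr4). In CPM the mean of Fcgr2b in the CCl4 livers stayed higher (30.8, against 14.8 for Fcgr3 and 11.9 for Fcgr4).

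The balance of activating over inhibitory receptor transcripts was compared within each library, where scaling of the libraries has no effect. For Fcgr1 over Fcgr2b the log2 ratio of CPM was -3.23 ± 0.41 in the oil livers and -1.51 ± 0.23 in the CCl4 livers (SD, n = 6), and the groups did not overlap. The ratio rose 3.28-fold (log2 difference 1.71; exact two-sided permutation test of 6 against 6 livers, p = 0.00216, the smallest these groups allow; 0.00433 adjusted over the 6 ratios tested). For Fcgr4 over Fcgr2b it rose 1.95-fold, from -2.35 ± 0.26 to -1.38 ± 0.19, again with no overlap (exact permutation p = 0.00216, adjusted 0.00433). For Fcgr3 over Fcgr2b it rose 1.93-fold, from -2.02 ± 0.36 to -1.07 ± 0.27 (exact permutation p = 0.00433, adjusted 0.00649). Here the groups overlapped, since oil replicate 5 (-1.35) lay above CCl4 replicate 5 (-1.57). Adjusted for the length slope the 3 differences were 1.54, 0.81 and 0.79 on the log2 scale, with no test.

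Among the signalling genes, Ptpn6 and Lyn were lower relative to Syk after CCl4. The log2 ratio of Ptpn6 over Syk went from 1.96 ± 0.24 in the oil livers to 1.34 ± 0.18 in the CCl4 livers, with no overlap (log2 difference -0.62; exact permutation p = 0.00216, adjusted 0.00433). That of Lyn over Syk went from 2.16 ± 0.32 to 1.54 ± 0.37, with overlapping groups (log2 difference -0.62; exact permutation p = 0.00649, adjusted 0.00779). Adjusted for the length slope, with no test, these 2 differences were -0.80 and -0.96. For Fcgrt over B2m the difference of -0.25 did not pass the test (exact permutation p = 0.108, adjusted 0.108). Leaving out each library in turn moved none of these 6 ratios across the threshold.

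**Figure D3:**
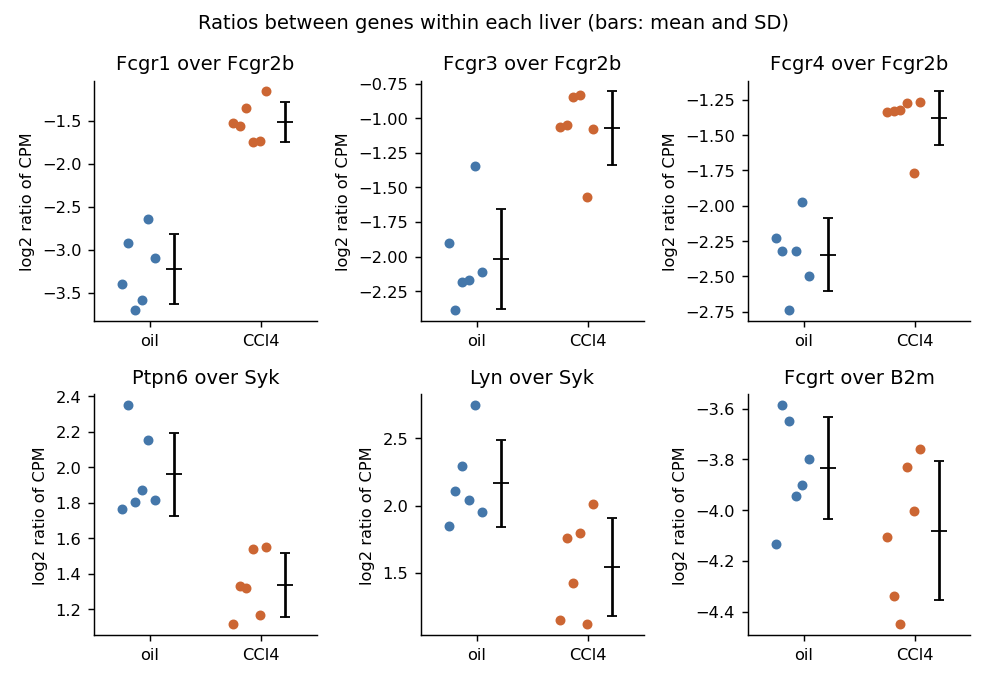
Log2 ratio of 2 genes within each liver, for the 6 ratios tested, with 1 point per liver and bars for the mean and SD of the 6 livers of a group. The ratios of Fcgr1, Fcgr3 and Fcgr4 over Fcgr2b are higher in the CCl4 livers, those of Ptpn6 and Lyn over Syk are lower, and Fcgrt over B2m overlaps broadly.

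The genes also varied among livers of the same group, and for most of them this variation ran with the length slope of the library. After removing the group means, Pearson's r between pairs of the 9 genes over the 12 livers was positive for 25 of 36 pairs and above 0.7 for 9 of them. It was highest for Fcgr4 with Fcer1g (0.907) and lowest for Fcgr3 with Syk (-0.80). These values are descriptions with no test, since all pairs share the same 12 libraries. With the length slope of the libraries, r was -0.94 for Fcer1g, -0.88 for Fcgr3, -0.84 for both Fcgr4 and Lyn, -0.71 for Fcgr1, -0.62 for Fcgr2b and -0.60 for Fcgrt. It was 0.90 for Syk, whose transcript is the longest, and 0.32 for Ptpn6. These values did not follow the order of transcript length, since Fcgr2b (3544 bases) and Lyn (3463 bases) have longer transcripts than Ptpn6 (2308 bases). The share of this length pattern in the likeness between genes was not tested.

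**Figure D4:**
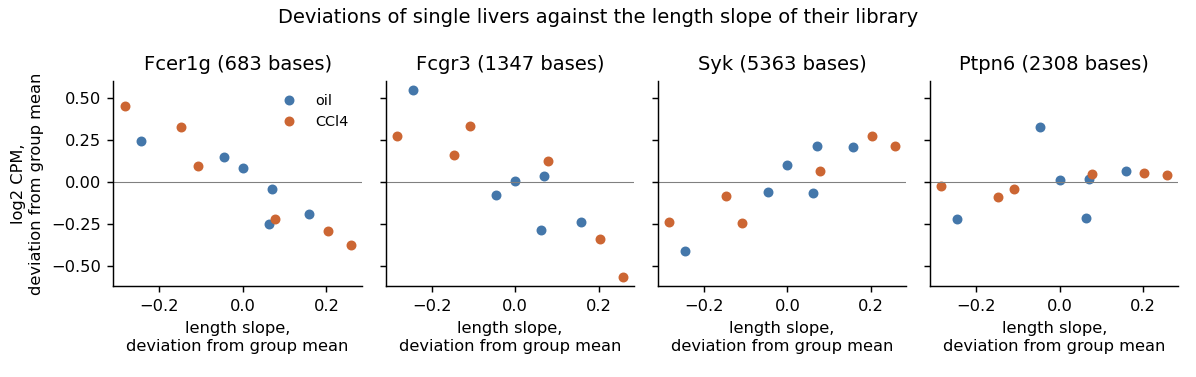
Level of Fcer1g, Fcgr3, Syk and Ptpn6 in each liver (log2 CPM, deviation from the group mean) against the length slope of the same library (log2 CPM per log2 bases, also as deviation from the group mean). Fcer1g falls with the slope (r = -0.94) and Syk rises with it (r = 0.90).

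By the same measure over 11707 genes whose mean log2 CPM reached 1, the genes most like Fcer1g were Cd52 (r = 0.988), Kiss1 (0.979) and Nat9 (0.979). Cd52, a short surface glycoprotein of leukocytes, was itself higher after CCl4 (7.04 to 30.9 CPM on average, log2 fold change 2.14, edgeR adjusted p = 3.13e-05), while Kiss1 and Nat9 were not called. Those most like Fcgr2b were Iqcb1 (0.980), Myct1 (0.961) and the mannose receptor Mrc1 (0.961), which sinusoidal endothelial cells and macrophages carry. Mrc1 was not called (30.5 and 37.9 CPM on average, edgeR adjusted p = 0.120). Those most like Fcgrt were Urod (0.958), Akr7a5 (0.941) and Acadvl (0.934), a mitochondrial fatty acid dehydrogenase that was lower after CCl4 (log2 fold change -0.38, edgeR adjusted p = 0.0254).

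The other genes of the pathway were read from lists by role. Among the ligands and their partners, 3 of 11 genes had a matching ID and were tested. No gene ID in the data was matched to the names of the 8 immunoglobulin chain genes. The joining chain of IgM and IgA, Jchain, rose from 1.83 ± 0.435 to 5.12 ± 2.13 CPM (SD, n = 6; log2 fold change 1.48, edgeR adjusted p = 0.00117), with overlapping groups. Crp, a pentraxin that binds Fc receptors, fell from 566 ± 164 to 331 ± 44.9 CPM (log2 fold change -0.77, edgeR adjusted p = 0.00291). The pentraxin Apcs stood at 288 ± 244 and 479 ± 209 CPM (edgeR adjusted p = 0.193).

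Among 11 tested genes for other Fc-binding receptors and ITAM adaptors, 4 rose, 2 fell and 5 were not called (median log2 fold change 0.50). Tyrobp, the ITAM adaptor DAP12 of myeloid and NK receptors, rose from 15.7 ± 5.22 to 58.5 ± 27.2 CPM (SD, n = 6; log2 fold change 1.90, edgeR adjusted p = 2.97e-04). Fcrl1, an Fc receptor-like gene of B cells, rose from 0.377 to 0.976 CPM on average. Pigr, which carries IgA and IgM across hepatocytes and bile duct cells, fell from 1151 ± 170 to 555 ± 166 CPM (log2 fold change -1.05, edgeR adjusted p = 6.82e-04), with no overlap. The level of Fcer1g per CPM of Tyrobp ran from 0.570 to 0.992 in the oil livers (median 0.793) and from 0.540 to 1.10 in the CCl4 livers (median 0.655), with overlap and no test.

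Of 11 Src-family and Tec-family kinases other than Lyn, 5 rose, 1 fell and 5 were not called (median 0.47). The myeloid Src-family kinase Fgr rose from 3.38 ± 0.905 to 6.67 ± 0.427 CPM (SD, n = 6) with no overlap between groups, by 0.98 on the log2 scale (edgeR adjusted p = 5.02e-04). Btk, a Tec-family kinase of B cells and myeloid cells, rose from 1.13 ± 0.132 to 3.31 ± 0.405 CPM (log2 fold change 1.55, edgeR adjusted p = 2.94e-06). Tec itself fell from 21.0 ± 4.78 to 13.3 ± 1.16 CPM (log2 fold change -0.66, edgeR adjusted p = 0.00415). Fgr and Btk passed the test where Lyn did not, but the difference between these kinases and Lyn was not tested.

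Of 24 adaptors and enzymes downstream of Syk, 11 rose, 1 fell and 12 were not called (median 0.37). The membrane adaptor Lat2 rose from 0.970 to 5.53 CPM on average (log2 fold change 2.51 ± 0.25, edgeR adjusted p = 4.18e-06). The adaptor Blnk (log2 fold change 2.20) and Card9, which links Syk to NF-kappaB (1.52), rose as well. Plcg1, a phospholipase, fell from 25.6 ± 6.82 to 12.1 ± 7.17 CPM (SD, n = 6; log2 fold change -1.08, edgeR adjusted p = 0.0305), with overlapping groups. The number called lower in this list ran from 0 to 4 over the alternatives.

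Fcgr2b and Ptpn6 were not called, while of 25 other inhibitory receptors, phosphatases and adaptors 17 rose, 0 fell and 8 were not called (median 1.13; 0 to 3 fell over the alternatives). Sirpa, the receptor of the CD47 signal, rose from 17.4 ± 1.82 to 67.9 ± 5.12 CPM (SD, n = 6; log2 fold change 1.97, edgeR adjusted p = 4.82e-08). Cd72, an ITIM receptor of B cells and macrophages, rose from 5.20 ± 0.403 to 17.5 ± 2.11 CPM (edgeR adjusted p = 2.21e-07), and the ITIM lectin Clec4a2 rose 7.99-fold (edgeR adjusted p = 9.25e-06). Inpp5d, the lipid phosphatase SHIP-1 that binds the ITIM of Fcgr2b, rose from 3.78 ± 0.966 to 8.29 ± 2.59 CPM (log2 fold change 1.13, edgeR adjusted p = 0.00158), with no overlap.

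Of 20 genes of the phagocytosis machinery and the NADPH oxidase, 16 rose, 0 fell and 4 were not called (median 0.96). Arpc1b, a subunit of the actin-branching complex, rose from 15.6 ± 2.78 to 36.0 ± 3.08 CPM (SD, n = 6; edgeR adjusted p = 7.76e-06). The myosin Myo1f (log2 fold change 1.52) and the small GTPase Rac2 of the oxidase (0.94) rose with no overlap between the groups. These counts stand beside the 20.6% of all genes tested that were called higher.

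**Figure D5:**
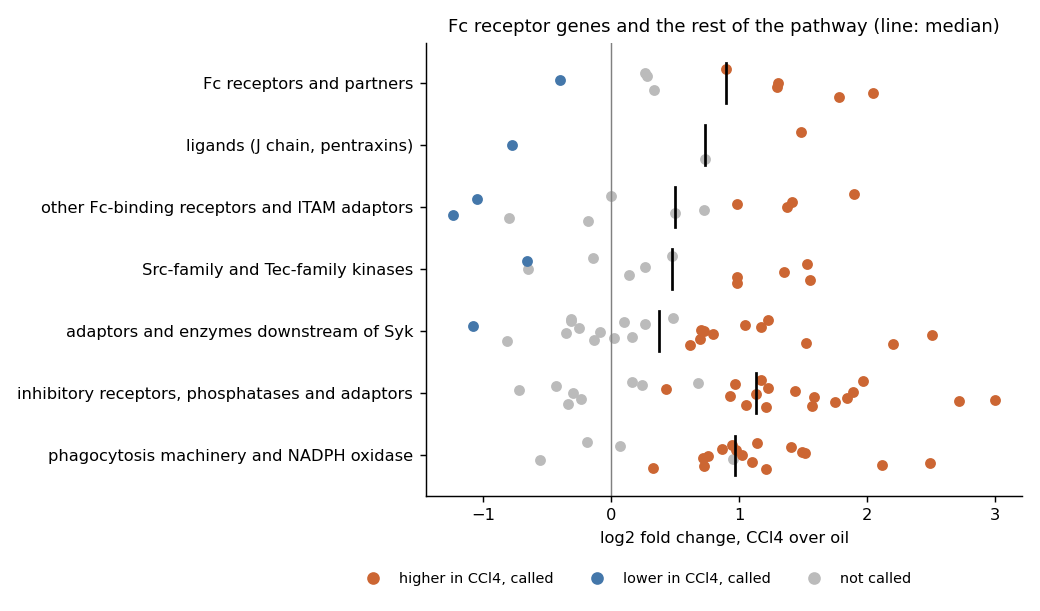
Log2 fold change, CCl4 over oil, of every tested gene in the Fc receptor set and in the 6 lists of pathway genes, coloured by call, with a line at each median. The lists of inhibitory genes and of phagocytosis genes have the highest medians of the 6 lists (1.13 and 0.96) and no gene called lower.

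Markers of the cells that carry these receptors moved too, and their part in the results was not tested. Of 10 general macrophage markers 7 rose and 1 fell, and their summed level went from 268 to 357 CPM in the oil livers to 560 to 889 CPM in the CCl4 livers. Csf1r, the receptor that macrophages need to survive, stood at 37.2 ± 6.63 and 49.3 ± 10.97 CPM (SD, n = 6) and was not called (edgeR adjusted p = 0.0684). Of 8 Kupffer cell markers 5 rose (sums of 243 to 404 and 510 to 915 CPM). All 10 markers of monocytes and monocyte-derived macrophages rose, and their sum went from 30.6 to 55.5 CPM to 245 to 367 CPM. Most of that sum (45.0 and 303 CPM on average in the oil and CCl4 livers) came from Spp1 (29.2 and 148.5 CPM) and Gpnmb (3.60 and 65.9 CPM). The sum is thus mainly a reading of these genes. The counts of markers stand beside 20.6% of all genes tested called higher and 18.4% called lower. Per CPM of Csf1r, Fcer1g ran from 0.260 to 0.513 in the oil livers and from 0.497 to 1.64 in the CCl4 livers, Fcgr1 from 0.0449 to 0.131 and from 0.129 to 0.508, and Lyn from 0.494 to 1.07 and from 0.442 to 1.11. The first 2 of these barely overlapped and Lyn overlapped fully. Fcgr3 (0.118 to 0.324 and 0.176 to 0.536) and Fcgr4 (0.0885 to 0.210 and 0.147 to 0.472) overlapped more widely on this scale. Csf1r moved less than other genes of its list, since Cd68 rose 5.37-fold and C1qa, C1qb and C1qc rose between 2.87-fold and 3.47-fold.

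Markers of other cells that carry Fc receptors were read in the same way. Of 10 neutrophil markers 6 were tested, and 1 rose (sums of 13.5 to 50.6 and 18.2 to 50.3 CPM). Camp, Ngp, Ltf and Ly6g were too low to test. On average Camp stood at 0.0391 and 0.423 CPM, Ngp at 0.0915 and 0.516, Ltf at 0.0481 and 0.321 and Ly6g at 0.0318 and 0.0429. With no filter on low counts, 4 neutrophil markers were called higher. For mast cells and basophils, which use Fcer1g with the IgE receptor, 7 of 10 markers were too low to test, and Cpa3, Fcer1a and Ms4a2 had no liver above 0.154 CPM. Their summed level (10.4 to 29.1 and 10.8 to 18.3 CPM) came from Kit, Hdc and Gata2. Of 8 B cell markers 5 rose (sums of 5.07 to 7.24 and 9.65 to 12.6 CPM). Of 6 tested NK cell markers 0 rose and 1 fell, and of 7 T cell markers 1 rose and 1 fell. Over all genes tested, 20.6% were called higher and 18.4% lower. Of 7 dendritic cell markers 5 rose (7.18 to 10.9 and 9.61 to 13.0 CPM). Of 4 tested plasma cell markers 3 rose, but their summed level overlapped (196 to 272 and 209 to 238 CPM). Most of that sum was Sdc1 (219 and 190 CPM on average), which was not called.

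Sinusoidal endothelial cells are known as carriers of Fcgr2b, as are macrophages and B cells. Of 11 sinusoidal endothelial markers Lyve1 rose, Kdr fell and 9 were not called, and their summed level overlapped between the groups (212 to 362 and 263 to 328 CPM). Per CPM of the scavenger receptor Stab2, Fcgr2b ran from 0.626 to 1.04 in the oil livers (median 0.721) and from 0.684 to 1.57 in the CCl4 livers (median 1.15). The reference gene mattered: per CPM of Kdr, itself lower after CCl4, the medians were 0.863 and 2.10 (ranges 0.683 to 1.73 and 1.18 to 3.66), and per CPM of Csf1r they were 0.629 and 0.604. For hepatocytes, which carry Fcgrt, of 9 matched markers Ahsg rose, Hnf4a and Apoa2 fell and 6 were not called. Hnf4a, a transcription factor of hepatocytes, fell from 681 ± 130 to 328 ± 90.7 CPM (SD, n = 6; log2 fold change -1.05, edgeR adjusted p = 6.80e-04) with no overlap, and the apolipoprotein gene Apoa2 fell from 8011 ± 1102 to 5092 ± 1351 CPM (edgeR adjusted p = 0.00917). Alb, the albumin gene, was not called, at 78020 ± 14780 and 77060 ± 15610 CPM (SD, n = 6; edgeR adjusted p = 0.939). Per 100 CPM of Alb, Fcgrt ran from 0.145 to 0.229 CPM in the oil livers and from 0.104 to 0.252 CPM in the CCl4 livers, with overlap. Ptpn6 per CPM of Ptprc, the leukocyte marker CD45, ran from 1.73 to 2.82 in the oil livers and from 0.836 to 1.80 in the CCl4 livers. These ranges overlapped slightly and were not tested. Ptprc itself was higher after CCl4 (10.55 and 20.64 CPM on average, log2 fold change 0.97, edgeR adjusted p = 7.68e-04).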

How the data were processed

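Whole liver RNA of 12 mice, 6 per group, was sequenced. Per the labels' protocols, libraries came from a stranded kit for total RNA. The authors deposited unnormalised whole-number read counts per gene, in sample files and in 1 series table with the same values. The submitters' processing notes name the build GRCm38. Aligner, counter, annotation and use of strand: not given in the sources used here. IDs with no name took 2.19% of counts and stayed in the fit.

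After filterByExpr and TMM scaling, the counts were tested by the robust quasi-likelihood F test of edgeR 4.0.16 in R 4.3.3, with Benjamini-Hochberg adjustment over all 16032 genes tested and a threshold of 0.05. A standard error is the log2 fold change divided by the square root of F, and its 95% interval uses the t distribution with 10 residual degrees of freedom. Log2 CPM used a prior count of 2. Ratios were tested by exact two-sided permutation. Alternatives were other scalings, DESeq2 1.42.0, limma-voom (limma 3.58.1), other filters, thinning, the length slope (86.6% of tested genes had a length) and leaving out libraries. No pair of replicates agreed within sampling noise, with a chi-square per gene of 51.6 for the closest pair.

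The genes and lists were chosen with earlier results of these data known. Named were the 9 genes, in each pathway list up to 3 called genes with the smallest p and 1 called against the majority, B2m, Tyrobp, Inpp5d and Csf1r, and the 3 genes most like Fcer1g, Fcgr2b and Fcgrt. Of these, 1 is not reported here. Apcs, Cd52, Ptprc, Stab2 and the marker genes named singly were chosen after their values were seen. Promoter windows are from RefSeq, GRCm38.p6, and matched 8 of the 9 genes.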

Additional observations from a re-analysis of the deposited data

Results flagged for a closer look

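In 7 of 54 sets of 6 livers, 1 liver stood apart from the other 5 by a gap that exceeds 0.625 of the whole range of the set (Dixon's test at 95%). Chance gives about 1 in 20 such sets. For Fcgr1, CCl4 replicate 6 was at 16.6 CPM and the next liver at 11.4 CPM. For Fcgr3, oil replicate 5 was at 8.71 CPM and the next at 6.12 CPM. For the log2 ratio of Fcgr3 over Fcgr2b, CCl4 replicate 5 was at -1.57 and the next at -1.08, and for Fcgr4 over Fcgr2b it was at -1.765 and the next at -1.34. The same liver had the highest sum of mast cell and basophil markers (18.3 CPM, next 13.3 CPM) and of sinusoidal endothelial markers (328.0 CPM, next 273 CPM). CCl4 replicate 4 had the lowest sum of dendritic cell markers (9.61 CPM, next 11.7 CPM).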

How the results depend on the processing

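Fcgr1, Fcgr3, Fcgr4, Fcer1g and Syk were called higher in all 21 alternatives, and no gene of the 9 changed direction. With upper-quartile scaling 8 of the 9 genes were called higher instead of 5. That scaling put the median log2 fold change of all genes at 0.13 instead of 0.01, and 67.3% of called genes were then higher instead of 52.8%. The number of genes called in all ran from 5190 (at least 50 counts in 6 libraries) to 8729 (limma-voom). Each ratio kept its direction in 16 of 16 alternatives, and its side of the threshold wherever a test was run. The adjustment for the length slope was among these 16 and had no test. Without oil replicate 5 and CCl4 replicate 6, an alternative added for the ratios after the data were seen, Fcgr3 over Fcgr2b differed by 1.08 on the log2 scale. Of 36 counts of list genes called higher or lower, 18 moved by more than 1.5 times under some alternative, mostly counts of 0 to 2 genes. Kinases called lower ran from 1 to 3, other receptors and adaptors higher from 1 to 5, neutrophil markers higher from 1 to 4, B cell markers higher from 3 to 6 and dendritic cell markers higher from 3 to 5, and the others stayed between 0 and 4. No paired analysis was possible because the labels give no replicate number that pairs a CCl4 liver with an oil liver. Depth does not limit the 9 genes, the lowest count being 72, but exact permutation tests of 6 against 6 livers cannot go below p = 0.00216.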
